A study of Mus musculus with 10 samples.

Results

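The genes described here carry nutrient and energy signals to and from mTORC1, the growth-promoting protein kinase complex built on mTOR. They comprise the TSC complex and its GTPase Rheb, the Rag GTPases with their lysosomal anchor Ragulator, the GATOR complexes, folliculin, the sestrins and other amino acid sensors, the stress-induced inhibitors Ddit4 and Ddit4l, the subunits of AMPK with its activating kinase LKB1, and kinases and translation repressors that act below mTOR. The subunits of the mTOR complexes themselves were left out. Membership followed a list of 43 genes by name, and 40 of them were measured, out of 19659 genes measured in all. Eif4ebp3, Lamtor3 and Rps6kb1 had no probe set with values that named a single gene.

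The tissue was subcutaneous white fat from the inguinal-femoral depot. It was taken from 10 F2 females at 14 weeks of age, which ate chow and received no treatment, and each mouse was hybridised to its own one-colour array. FF mice (5 animals) were homozygous for the Fat-line allele at Fob3a, an obesity locus on chromosome 15. VV mice (5 animals) were homozygous for the allele of the V line, a congenic line bred by repeated backcrossing of a recombinant to the Fat line; the labels also call this the Lean-line allele. All mice thus came from the same intercross of related lines, only females were studied, and whole fat pads were used, so that more cells of a type and more RNA per cell cannot be told apart. The study's title names Deptor, an mTOR inhibitor encoded on chromosome 15, and the question put to the data is whether expression in fat differs between the genotypes.

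As background, amino acids reach mTORC1 through the Rag GTPases, which draw it to the lysosome surface, where Rheb switches the kinase on. GATOR1 turns the Rag GTPases off, GATOR2 restrains GATOR1, and sestrins and CASTOR1 bind GATOR2 when leucine or arginine is scarce. The TSC complex turns Rheb off. AMPK, a kinase made of an alpha, a beta and a gamma subunit, responds to low cellular energy, is activated by LKB1 and restrains mTORC1 through TSC2 and Raptor. In fat these pathways govern lipid synthesis, lipid breakdown and mitochondrial content.

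Values were log2 intensities as deposited, between 3.56 and 14.2 over all probe sets, with array medians of 7.15 to 7.17 in FF mice and 7.18 to 7.21 in VV mice. Differences are FF minus VV, each with its standard error from limma, and a gene passed the test at an adjusted p under 0.05, with Benjamini-Hochberg adjustment over all 19659 genes. Markers of mature fat cells were present in every mouse: Retn, which encodes resistin, lay between 13.72 and 13.88 in FF mice and between 13.53 and 13.83 in VV mice, and Lpl, lipoprotein lipase, between 13.47 and 13.56 in FF mice and between 13.50 and 13.59 in VV mice. RNA of other tissues was uneven. Ckm, the muscle creatine kinase, was 9.91 in FF replicate 1 and at most 8.27 elsewhere, and Alb, albumin of liver, was 13.91 in VV replicate 1 and 12.56 in VV replicate 2.

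Only 1 of the 40 genes passed the test, and the list as a whole leaned slightly towards FF. Prkag2, the AMPK subunit gamma-2, rose; no member fell. Over all genes the shares past the test were 0.621% higher and 0.132% lower in FF. At an unadjusted p under 0.05, 11 members were higher and 1 was lower in FF, beside 10.2% and 6.18% of all genes. The groups did not overlap for 6 members, all higher in FF, while over all genes this held for 3.36% on the higher side and 1.34% on the lower side. The sign was positive for 32 members and negative for 8, beside 50.3% positive over all genes, and the median difference was 0.08, beside 0.00 over all genes. Most members were well expressed: among genes above the median intensity, 36 of them members, 57.0% of all genes were positive with a median of 0.02, and 23.8% of all genes and 30.6% of members had an unadjusted p under 0.05. Centring the arrays on their medians moved the median of all genes to 0.04 and that of the members to 0.11, and the share positive over all genes to 64.8%. No member differed by more than 0.38 log2 units in either direction.

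**Figure D1:**
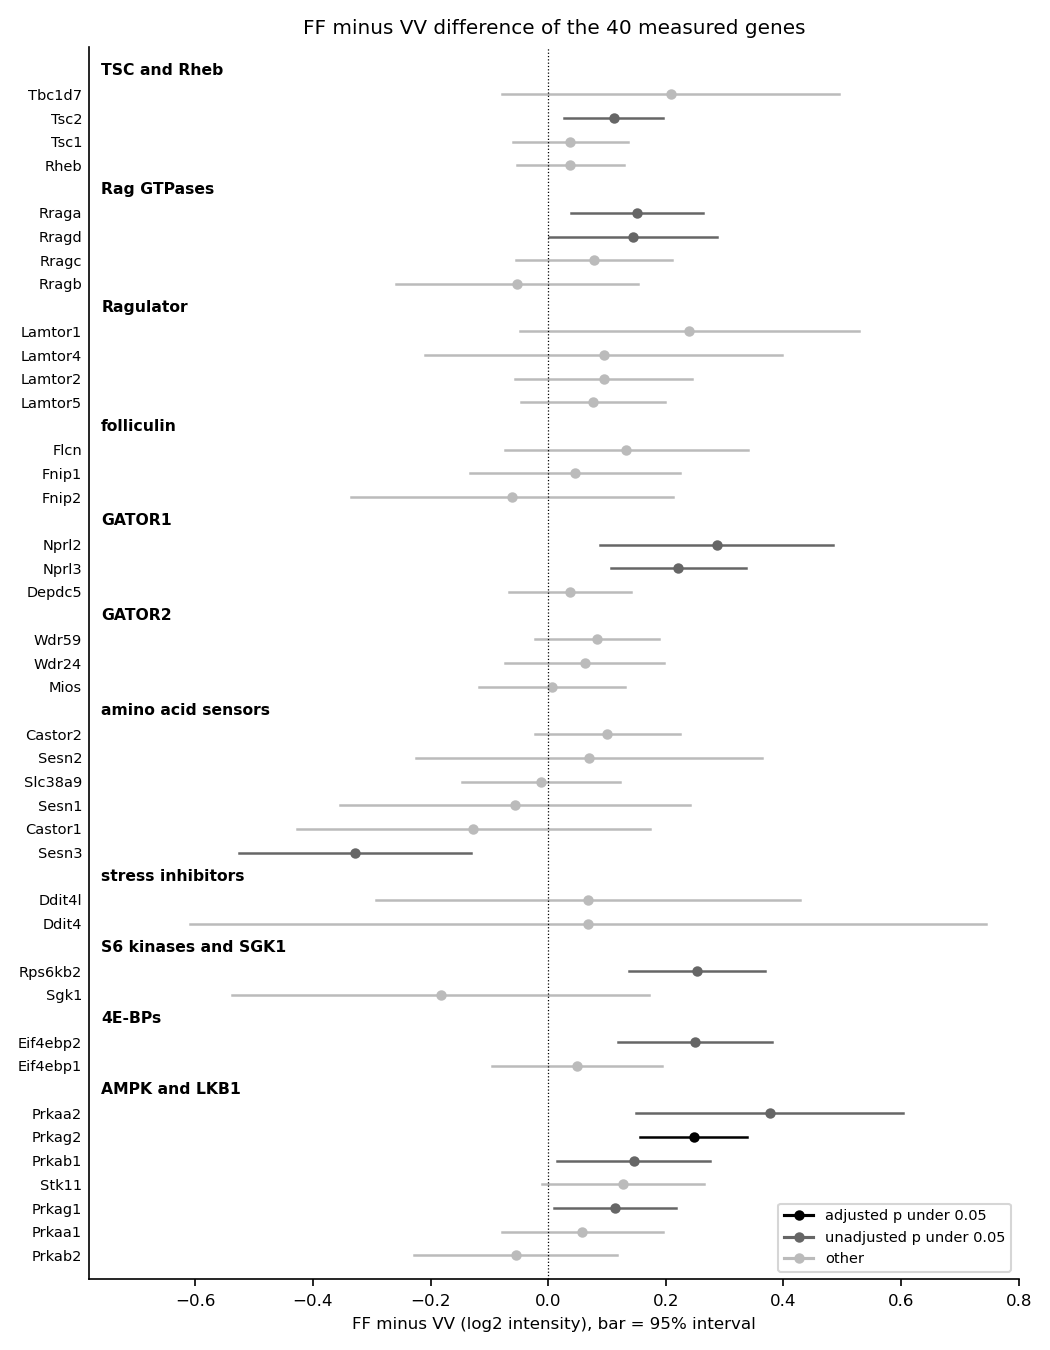
FF minus VV difference of log2 intensity for each of the 40 measured genes, grouped by role; points are differences and bars their 95% intervals from limma (5 mice a group). Prkag2 is the single gene drawn in black, and Sesn3 is the only one whose interval lies wholly below 0.

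AMPK subunits held the gene that passed and the largest difference among the members. Prkag2 encodes a regulatory subunit that binds adenine nucleotides. It had 10.23, 10.24, 10.23, 10.28 and 10.26 in FF replicates 1 to 5, against 9.96, 10.04, 10.09, 9.94 and 9.97 in VV replicates 1 to 5. All FF mice lay above all VV mice, and the lowest FF mouse exceeded the highest VV mouse by 0.13. The SD over mice was 0.02 in FF and 0.06 in VV (n = 5 each). The means differed by 0.25 ± 0.04 SE, or 1.19-fold with a 95% interval from 1.11 to 1.26, and the limma adjusted p was 0.0352. With each mouse left out in turn the difference stayed between 0.23 and 0.27, but the adjusted p ran from 0.0296 to 0.0951 and passed in 2 of 10 such fits, those lacking FF replicate 3 or VV replicate 3. Leaving out both mice with the most muscle or liver RNA, replicate 1 of each group, gave 0.0989.

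The RefSeq promoter table of assembly GRCm38.p6 holds 3 windows for Prkag2, all on the minus strand, each from 250 bases before to 50 bases after a start site. The annotated gene reaches further upstream than the first of them, so other starts are not shown. The windows are given because Prkag2 is the gene that passed, and the probe set, 10528702, gives a single value that does not separate these starts. None holds any of the 4 motifs searched, and so none has capitals. From upstream to downstream they lie at chr5:25100593-25100892, chr5:24995704-24996003 and chr5:24908460-24908759.
Prkag2 upstream window: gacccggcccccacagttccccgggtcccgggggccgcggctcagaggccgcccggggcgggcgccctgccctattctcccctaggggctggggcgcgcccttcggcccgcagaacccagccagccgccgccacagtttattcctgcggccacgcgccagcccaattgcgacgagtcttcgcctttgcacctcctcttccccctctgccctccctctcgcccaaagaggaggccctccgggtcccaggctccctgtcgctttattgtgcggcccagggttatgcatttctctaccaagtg
Prkag2 middle window: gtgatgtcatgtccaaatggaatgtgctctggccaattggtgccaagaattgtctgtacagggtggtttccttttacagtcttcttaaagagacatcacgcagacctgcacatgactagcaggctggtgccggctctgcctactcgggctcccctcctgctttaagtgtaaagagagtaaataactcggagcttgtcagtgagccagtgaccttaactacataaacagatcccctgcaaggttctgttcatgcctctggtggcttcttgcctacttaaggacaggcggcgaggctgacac
Prkag2 downstream window: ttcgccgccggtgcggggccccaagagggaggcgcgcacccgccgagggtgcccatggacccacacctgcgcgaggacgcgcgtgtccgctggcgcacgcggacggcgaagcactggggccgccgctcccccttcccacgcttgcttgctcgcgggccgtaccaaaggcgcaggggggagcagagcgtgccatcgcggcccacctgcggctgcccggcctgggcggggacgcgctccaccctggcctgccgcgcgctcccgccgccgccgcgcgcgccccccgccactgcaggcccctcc
Their G+C content was 69.7%, 50.3% and 79.3%, so the middle window stands apart from the others in composition. In the same annotation the next protein-coding gene beside Prkag2 is Rheb, another of the genes described here, with 0 protein-coding genes between them. Rheb differed by 0.04 ± 0.04 SE (limma adjusted p = 0.707), with a 95% interval from -0.05 to 0.13.

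None of the other AMPK subunits passed the test. Prkaa2, the catalytic subunit alpha-2, had 9.41, 9.31, 9.03, 9.35 and 9.07 in FF mice, against 9.06, 8.64, 8.82, 8.73 and 9.05 in VV mice. The groups overlapped, since FF replicate 3 fell below VV replicates 1 and 5. The difference was 0.38 ± 0.10 SE, the largest of the 40, with a limma adjusted p of 0.103; its SE was larger than that of Prkag2. Its paralogue Prkaa1, which encodes the alpha-1 subunit, had 10.72, 10.85, 10.91, 10.80 and 10.75 in FF mice, against 10.56, 10.74, 10.75, 10.85 and 10.83 in VV mice, and differed by 0.06 ± 0.06 SE. Prkag1, the gamma-1 subunit, had 10.88, 10.72, 10.69, 10.82 and 10.83 in FF mice, against 10.71, 10.67, 10.71, 10.62 and 10.67 in VV mice. All FF mice except replicate 3 stood above every VV mouse, and the difference was 0.11 ± 0.05 SE (limma adjusted p = 0.2596).

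Among the beta subunits, which hold the complex together, Prkab1 had 9.54, 9.57, 9.50, 9.69 and 9.42 in FF mice, against 9.30, 9.37, 9.48, 9.36 and 9.48 in VV mice (0.15 ± 0.06 SE, limma adjusted p = 0.246). Prkab2 had 8.44, 8.79, 8.85, 8.68 and 8.73 in FF mice, against 8.67, 8.72, 8.69, 8.78 and 8.92 in VV mice (-0.06 ± 0.08 SE). FF replicate 1 was the low Prkab2 value, and the sign turned without it. Stk11, which encodes LKB1, differed by 0.13 ± 0.06 SE (limma adjusted p = 0.348), or by 0.08 without VV replicate 4. In all, 5 of the 6 AMPK subunits had a positive difference and 4 an unadjusted p under 0.05, beside 50.3% and 16.4% of all genes. Among genes above the median intensity, where these subunits lie, the shares were 57.0% and 23.8%. Prkaa1 and Prkag1 are the 2 members encoded on chromosome 15, where Fob3a lies. They lie far apart, at chr15:5143861-5181899 and chr15:98812797-98831508, and their distance from Fob3a was not examined.

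**Figure D2:**
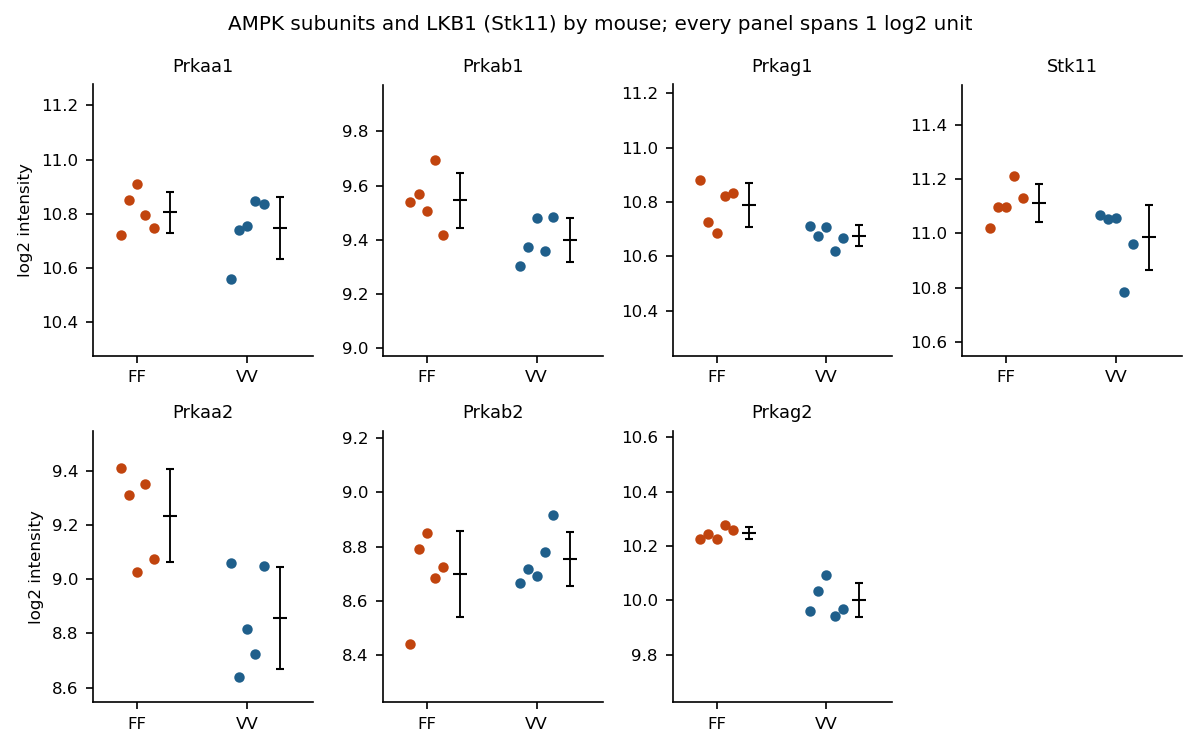
Log2 intensity of the 6 AMPK subunits and of Stk11 in each mouse (points), with mean and SD beside them (n = 5 a group); every panel spans the same 1 log2 unit. The Prkag2 groups are separated by 0.13, while the other panels show overlapping mice.

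RNA of skeletal muscle, a tissue in which Prkaa2 is known to be abundant, was highest in FF replicate 1. Without FF replicate 1 and VV replicate 1, Prkaa2 differed by 0.38 and Prkag2 by 0.24, and Prkag2 did not pass (limma adjusted p = 0.0989). These 2 mice had the highest Prkaa2 value of their groups, 9.41 in FF and 9.06 in VV. Leaving out both therefore lowers both means, and the unchanged Prkaa2 difference does not separate muscle RNA from genotype. All 15 skeletal muscle markers had a positive difference, with a median of 0.54 and 0 past the test, and their summed level, as log2, ran from 11.09 to 13.65 in FF mice and from 11.32 to 11.94 in VV mice. Markers of thermogenic fat cells moved with the group too. Of 11 measured, 5 rose and none fell, beside 0.621% and 0.132% of all genes. Their summed level ran from 12.86 to 14.25 in FF mice and from 10.72 to 11.88 in VV mice. Their part in the AMPK and mTORC1 values was not tested.

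Upstream of the Rag GTPases lies the GATOR1 complex, which inactivates them. Its 3 subunits had positive differences, 2 with an unadjusted p under 0.05, beside 50.3% and 16.4% of all genes, and none passed. Nprl3 had 8.96, 8.87, 8.74, 8.89 and 8.85 in FF mice, against 8.70, 8.64, 8.61, 8.54 and 8.71 in VV mice. The groups were separated by 0.03, and the difference was 0.22 ± 0.05 SE with a limma adjusted p of 0.0722. Nprl2, which binds Nprl3, had 8.74, 8.60, 8.66, 8.87 and 8.69 in FF mice, against 8.52, 8.34, 8.48, 8.15 and 8.66 in VV mice. VV replicate 5 reached into the FF range, and the difference was 0.29 ± 0.09 SE (limma adjusted p = 0.140). Depdc5, the remaining subunit, differed by 0.04 ± 0.05 SE. Of GATOR2, which restrains GATOR1, Wdr59 differed by 0.08 ± 0.05 SE, Wdr24 by 0.06 ± 0.06 SE and Mios by 0.01 ± 0.06 SE, with the groups overlapping in each.

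The Rag GTPases work as pairs of RagA or RagB with RagC or RagD. Rraga had 9.06, 9.12, 8.96, 8.95 and 8.98 in FF mice, against 8.94, 8.91, 8.89, 8.79 and 8.80 in VV mice. The groups touched without overlapping, 0.01 apart, and the difference was 0.15 ± 0.05 SE (limma adjusted p = 0.169). Rragb had 5.58, 5.61, 5.75, 5.43 and 5.27 in FF mice, against 5.59, 5.69, 5.43, 5.45 and 5.74 in VV mice (-0.05 ± 0.09 SE). Rragd had 5.85, 5.66, 5.90, 5.68 and 5.74 in FF mice, against 5.45, 5.68, 5.66, 5.70 and 5.63 in VV mice. Its groups overlapped, and the difference of 0.14 ± 0.06 SE (limma adjusted p = 0.298) had an unadjusted p of 0.0479. With a mouse left out, the unadjusted limma p of Rragd reached 0.122. Rragb and Rragd had low signals, at percentiles 18.2 and 20.4 of mean intensity, so their differences call for caution. Their SEs of 0.09 and 0.06 were nonetheless below that of Lamtor4 (0.14), a well expressed member at percentile 96.5. Rragc had 10.11, 10.08, 9.92, 10.03 and 9.99 in FF mice, against 9.96, 9.95, 10.03, 10.03 and 9.77 in VV mice (0.08 ± 0.06 SE).

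Ragulator, the scaffold that holds the Rag GTPases at the lysosome, gave 4 positive differences, none with an unadjusted p under 0.05. Lamtor1, its membrane anchor, differed by 0.24 ± 0.13 SE, and 8.81 in VV replicate 4 was the lowest of the 10 mice; without that mouse the difference was 0.12. Lamtor2, Lamtor4 and Lamtor5 differed by 0.09, 0.09 and 0.08. Folliculin, encoded by Flcn, acts on RagC and RagD together with the partners Fnip1 and Fnip2. Flcn differed by 0.13 ± 0.09 SE, Fnip1 by 0.05 ± 0.08 SE and Fnip2 by -0.06 ± 0.12 SE, and no folliculin gene had groups apart. Without FF replicate 3 the Flcn difference was 0.05.

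The TSC complex, the brake on Rheb, had 1 subunit, Tsc2, whose groups lay apart. Tsc2 had 10.29, 10.28, 10.36, 10.29 and 10.33 in FF mice, against 10.15, 10.24, 10.23, 10.21 and 10.16 in VV mice. All FF mice were higher, by at least 0.04, and the difference was 0.11 ± 0.04 SE, with the smallest spread between mice of the 40 genes (pooled SD 0.04) and a limma adjusted p of 0.173. Tsc1, its partner, differed by 0.04 ± 0.04 SE, and Tbc1d7, the third subunit, by 0.21 ± 0.13 SE. Without VV replicate 4 the Tbc1d7 difference was 0.08.

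Amino acid sensors held the single member with a lower value at an unadjusted p under 0.05. Sesn3, a sestrin that inhibits mTORC1 and is induced by FoxO factors, had 9.48, 9.64, 9.90, 9.60 and 9.71 in FF mice, against 9.92, 9.87, 9.96, 10.26 and 9.95 in VV mice. FF replicate 3 lay just above VV replicate 2, and the other FF mice lay below all VV mice. The difference was -0.33 ± 0.09 SE, or 0.80-fold with a 95% interval from 0.70 to 0.91, and the limma adjusted p was 0.101. It was 0.0481 without FF replicate 3 and between 0.108 and 0.197 without any other single mouse. Sesn1 had 10.26, 10.24, 10.84, 10.15 and 10.02 in FF mice, against 10.28, 10.37, 10.32, 10.59 and 10.25 in VV mice (-0.06 ± 0.13 SE), with FF replicate 3 the highest of all. Sesn2 differed by 0.07 ± 0.13 SE. The arginine sensor Castor1 differed by -0.13 ± 0.14 SE and its paralogue Castor2 by 0.10 ± 0.06 SE. Slc38a9, a lysosomal arginine transporter and sensor, differed by -0.01 ± 0.06 SE. The Castor1 difference ran from -0.22 to -0.05 with a mouse left out.

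The promoter windows of Sesn3 and of the upstream Sesn1 start are shown because both sestrins are known FoxO targets. Both are on the plus strand of GRCm38.p6, at chr9:14276051-14276350 and chr10:41810324-41810623, and capitals mark a FoxO motif on either strand.
Sesn3: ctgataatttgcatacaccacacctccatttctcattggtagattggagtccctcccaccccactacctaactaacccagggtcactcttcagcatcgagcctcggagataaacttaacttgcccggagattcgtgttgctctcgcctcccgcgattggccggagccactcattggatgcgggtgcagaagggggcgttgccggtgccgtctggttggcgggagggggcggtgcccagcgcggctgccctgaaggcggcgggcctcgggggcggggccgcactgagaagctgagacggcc
Sesn1 upstream start: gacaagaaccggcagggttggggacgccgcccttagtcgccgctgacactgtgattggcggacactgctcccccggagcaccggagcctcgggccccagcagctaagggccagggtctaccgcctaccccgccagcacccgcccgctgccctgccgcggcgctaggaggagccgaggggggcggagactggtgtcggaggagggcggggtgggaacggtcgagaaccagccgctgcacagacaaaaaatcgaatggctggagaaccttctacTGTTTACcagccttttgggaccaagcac
The motif, spelled GTAAACA, was found on the minus strand in the Sesn1 window, starting 23 bases into the transcript, and these letters do not occur in the Sesn3 window. Of 37 members with a RefSeq window, 2 held it in some window, Sesn1 and Stk11, beside 4.05% of 27025 genes. The E-box CACGTG, which MiT/TFE factors of lysosomal genes can bind, was found in 8 of the 37 (21.6%), beside 8.09% of genes: Fnip1, Lamtor1, Lamtor4, Rheb, Rragb, Rragc, Sgk1 and Tbc1d7. None of these 8 genes had an unadjusted p under 0.05. The Rheb window, on the minus strand at chr5:24842312-24842611, is shown as an example with the E-box in capitals.
Rheb: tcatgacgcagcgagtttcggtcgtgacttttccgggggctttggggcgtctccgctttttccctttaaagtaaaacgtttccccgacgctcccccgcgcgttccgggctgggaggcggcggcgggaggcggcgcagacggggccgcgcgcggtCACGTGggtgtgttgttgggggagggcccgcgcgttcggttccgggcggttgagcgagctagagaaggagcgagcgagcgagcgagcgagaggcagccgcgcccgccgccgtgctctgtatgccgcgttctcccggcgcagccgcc
The longer motifs TCACGTGA, which contains the E-box, and TGATGCAA, an ATF4 motif, were found in 0 members, beside 1.12% and 1.03% of genes. Eif4ebp1, Rps6kb2 and Wdr24 were the members not matched to a window.

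**Figure D3:**
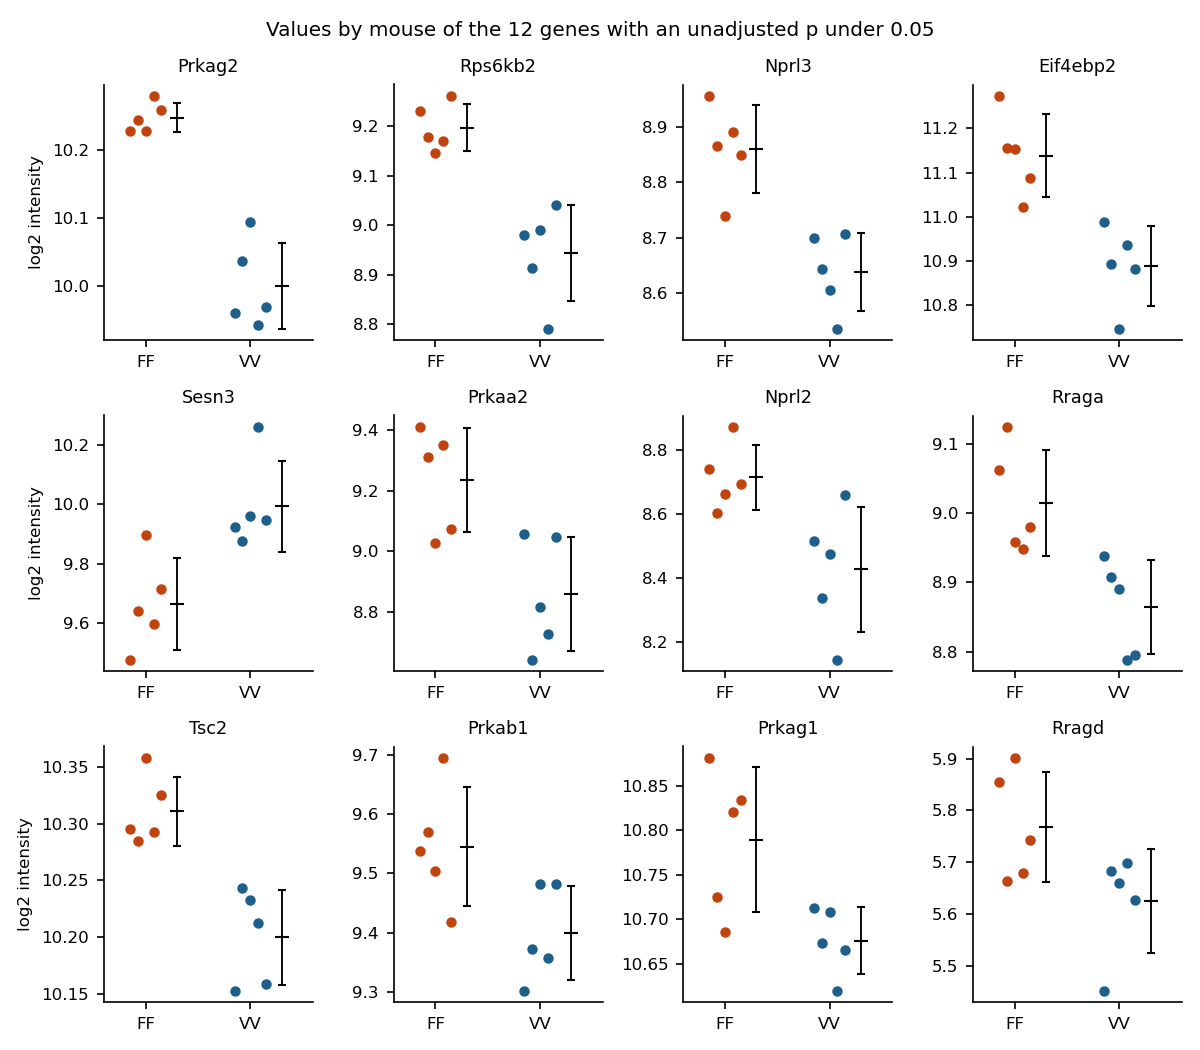
Log2 intensity in each mouse (points), with mean and SD (n = 5 a group), for the 12 genes with an unadjusted p under 0.05, ordered by p; the y axes differ. FF mice lie above VV mice without overlap for Prkag2, Rps6kb2, Nprl3, Eif4ebp2, Rraga and Tsc2, and Sesn3 is the gene with lower FF values.

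Of the measured outputs of mTORC1, an S6 kinase and a translation repressor had non-overlapping groups, higher in FF, beside 3.36% of all genes. Neither passed the test. Rps6kb2, which encodes S6 kinase 2, had 9.23, 9.18, 9.15, 9.17 and 9.26 in FF mice, against 8.98, 8.91, 8.99, 8.79 and 9.04 in VV mice. The lowest FF mouse exceeded the highest VV mouse by 0.10, and the difference was 0.25 ± 0.05 SE, short of the threshold with a limma adjusted p of 0.0547. Eif4ebp2, a repressor of cap-dependent translation that mTORC1 inactivates, had 11.27, 11.16, 11.15, 11.02 and 11.09 in FF mice, against 10.99, 10.89, 10.75, 10.94 and 10.88 in VV mice. The groups were 0.03 apart, and the difference was 0.25 ± 0.06 SE (limma adjusted p = 0.0742). Its paralogue Eif4ebp1 had 12.10, 11.95, 12.24, 12.04 and 12.10 in FF mice, against 12.15, 11.99, 12.14, 11.92 and 11.98 in VV mice (0.05 ± 0.07 SE). Sgk1, a kinase activated through mTORC2 and induced by corticosteroids, differed by -0.18 ± 0.16 SE, and by -0.29 to -0.09 with a mouse left out.

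The stress-induced inhibitors varied most between mice. Ddit4, which encodes REDD1 and is induced by glucocorticoids, hypoxia and ATF4, had 9.30, 7.86, 9.28, 8.61 and 8.64 in FF mice, against 9.16, 8.64, 8.99, 8.78 and 7.78 in VV mice. Its pooled SD within groups was 0.57, beside a median of 0.10 over the members, and the difference was 0.07 with a 95% interval from -0.61 to 0.74. The mean centred score of 14 other glucocorticoid targets was 0.17, -0.16, 0.37, -0.04 and -0.28 in FF mice, against 0.46, 0.00, -0.09, -0.08 and -0.35 in VV mice. It was highest in VV replicate 1 and lowest in VV replicate 5, which also had the lowest Ddit4 value. The next lowest score was in FF replicate 5, where Ddit4 was 8.64, and the next lowest Ddit4 value was in FF replicate 2. Tat, on this list, is also on the liver list, and VV replicate 1 had the highest liver score, at 4.01. The part of liver RNA in the glucocorticoid score was not tested. Ddit4l differed by 0.07 ± 0.16 SE.

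Paralogues were then compared within each mouse, as the difference of their log2 values, over all 12 pairs that the measured families allow. None of the 12 passed at an adjusted p under 0.05 in a two-sided exact permutation test of mice, adjusted over the pairs, and 2 had an unadjusted p under 0.05. The largest gap relative to its spread was Prkag2 minus Prkag1, which was greater in FF by 0.13 ± 0.04 SE (exact p = 0.0238, adjusted 0.1497). Prkaa2 minus Prkaa1 differed by 0.32 ± 0.15 SE (exact p = 0.0714), Sesn3 minus Sesn1 by -0.27 ± 0.11 SE (exact p = 0.0397) and Eif4ebp2 minus Eif4ebp1 by 0.20 ± 0.09 SE (exact p = 0.0635), each with an adjusted p of 0.1497. Levels of different probe sets are not comparable, so only the change of each gap between the genotypes is given. The smallest p that 252 assignments allow is 0.00794, so a pair fully separated on its own would have an adjusted p of 0.0952, and no lone pair could pass over 12 pairs. These comparisons therefore neither show nor exclude that a paralogue differed more between the genotypes than its partner.

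**Figure D4:**
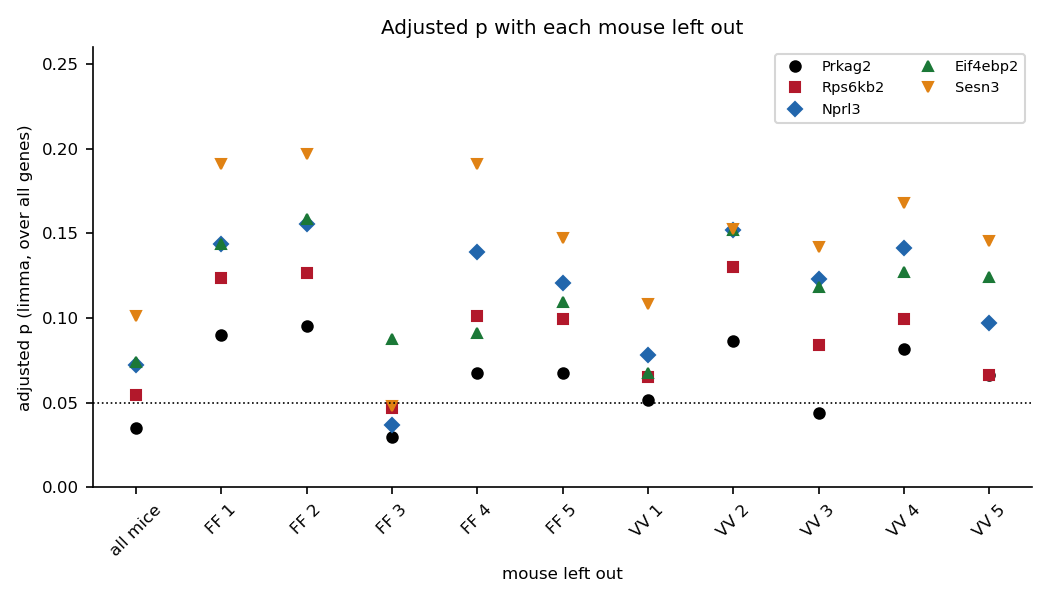
Adjusted p over all genes in limma for 5 of the genes, with all mice and with each mouse left out in turn; the dotted line is 0.05. Prkag2 lies below the line with all mice and without FF 3 or VV 3, and without FF 3 Rps6kb2, Nprl3 and Sesn3 lie below it as well.

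Genes around this network were read from lists of the same pathways. Of 19 measured AMPK regulators and substrates 3 rose and none fell, beside 0.621% and 0.132% of all genes. At an unadjusted p under 0.05, 9 were higher and 2 lower, beside 10.2% and 6.18% of all genes. The median difference of the 19 was 0.12. The 3 were Acacb, an acetyl-CoA carboxylase that AMPK phosphorylates, at 1.34 ± 0.18 SE, Ppargc1a, a coactivator of mitochondrial genes, at 0.99 ± 0.14 SE, and Gys1, the glycogen synthase of muscle and fat, at 0.50 ± 0.09 SE (limma adjusted p = 0.0219, 0.0219 and 0.0366). Gys1 had 11.06, 10.95, 10.77, 10.92 and 10.86 in FF mice, against 10.54, 10.14, 10.50, 10.28 and 10.58 in VV mice. Stradb, the pseudokinase that activates LKB1, chosen here after its value was seen, differed by 0.37 ± 0.08 SE with groups apart (limma adjusted p = 0.0645). Ppargc1a is also a marker of thermogenic fat.

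Of 12 measured mTOR complex genes 1 rose, Deptor, at 0.55 ± 0.06 SE, beside 0.621% of all genes. The median of the 12 was 0.11. Mtor differed by 0.21 ± 0.06 SE and Tti2, a chaperone subunit of mTOR-like kinases, by 0.17 ± 0.05 SE. No gene passed in the remaining pathway lists. Among 15 other genes of lysosomal amino acid sensing the median was 0.04, and Slc15a3, Slc7a5 and Kptn differed by -0.30, -0.14 and 0.14. Among 12 subunits of the v-ATPase, the lysosomal proton pump that couples to Ragulator, the median was 0.00, and Atp6v1b2, Atp6ap2 and Atp6v1e1 differed by -0.21, -0.18 and 0.11. Among 14 TFEB-family and lysosomal genes the median was -0.04, with Ctsl, Gpnmb and Ctsb at -0.21, -0.71 and -0.08.

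Of 12 genes listed for translation and growth around mTORC1, not all of them regulated by it, the median was -0.01. Lpin1, Rps6ka3 and Pdcd4 differed by 0.41, -0.23 and -0.09. Among 15 FoxO targets the median was -0.04, with Pdk4, Sod2 and Klf15 at 0.94, 0.24 and 0.32 (limma adjusted p = 0.0617 to 0.297); 7 of the 15 were positive and 8 negative. Among 14 glucocorticoid targets the median was 0.01, with Zbtb16, Klf9 and Fkbp5 at 0.35, 0.27 and 0.48. Among 14 ATF4 and p53 targets the median was -0.05, with Atf3, Chac1 and Phgdh at -0.72, 0.27 and -0.27.

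Markers of other cell types moved with the genotypes in some lists. All 14 leukocyte markers had a negative difference, with a median of -0.45. Of these, 1 was past the test, Ptprc, beside 0.132% of all genes on the lower side. The summed level of the 14, as log2, ran from 12.97 to 13.30 in FF mice and from 13.46 to 13.92 in VV mice. Laptm5 and Cd68, the leukocyte markers with the highest mean values, lay between 10.93 and 11.29 and between 10.69 and 11.17 in FF mice, against 11.23 to 11.62 and 11.02 to 11.71 in VV mice. The 13 mature adipocyte markers had a median of 0.05, the 9 endothelial markers one of -0.05, the 8 progenitor markers one of -0.28 and the 10 mammary markers one of -0.05, with none past the test. All 15 liver markers were negative, with a median of -1.09 and none past the test, and their summed level ran from 11.56 to 12.05 in FF mice and from 11.38 to 15.79 in VV mice. Their mean centred score was 4.01 and 0.54 in VV replicates 1 and 2. It was -0.84, -0.34 and -0.66 in VV replicates 3 to 5, against -0.66 to -0.29 in FF mice. The part of the leukocyte, liver and other markers in the values of the 40 genes was not tested.

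**Figure D5:**
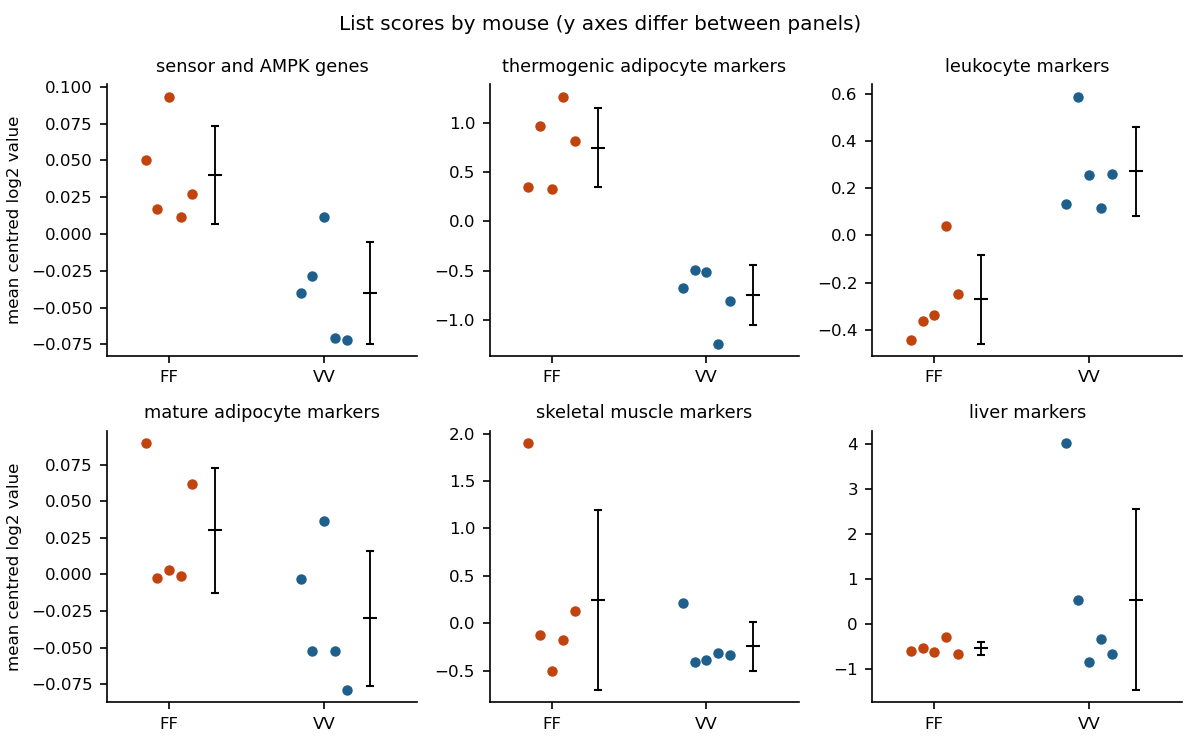
Mean log2 value per mouse of the members and of 5 marker lists after centring every gene over the 10 mice (points), with mean and SD (n = 5 a group); y axes differ between panels. Among the 5 marker lists drawn, thermogenic and leukocyte scores separate FF from VV mice, member scores run from 0.01 to 0.09 in FF and from -0.07 to 0.01 in VV, FF replicate 1 stands out for skeletal muscle, and VV replicate 1 for liver.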

How the data were processed

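Each of 10 arrays measured the fat of 1 mouse. Each sample has its own animal number, and neither batch nor scan date is stated. The authors deposited log2 intensities, 1 for each probe set, made with RMA, per the submitters' processing notes, of unstated version and build. No further normalisation was applied.

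Of 35557 probe sets, 25689 had values on all arrays and 20777 of these named a single gene in the platform table. The probe set with the highest mean stood for a gene, and symbols were updated through RefSeq (GRCm38.p6; 20699 probe sets matched, 2 symbols changed). FF and VV were compared with limma 3.58.1 in R 4.3.3 (lmFit, eBayes, no covariate, two-sided), with Benjamini-Hochberg adjustment over all genes. The procedure was tested on simulated data with shifts larger than any difference among the members, so its recovery of smaller differences was not tested. Castor2 and Slc38a9 had a further probe set, which gave 0.07 and -0.01, of the same sign as the one used. Exact permutations were run in Python 3.11.15 and figures drawn with matplotlib 3.10.9. Promoter windows are RefSeq sequences, searched on both strands for exact motifs.

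The members, lists, naming rule and alternatives were chosen with earlier results of these data known. Members with an unadjusted p under 0.05 and their paralogues are given by mouse, the 3 smallest p values of each pathway list and the 2 highest means of marker lists are named, and the paralogue comparison was added after seeing the data. Mice with the same replicate number did not deviate together (correlations of -0.26 to 0.10), so the numbers were not taken to pair them. The number of arrays limits the precision.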

Additional observations from a re-analysis of the deposited data

Results flagged for a closer look

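In 6 of 80 sets of 5 mice (a gene in a group) the highest or lowest mouse stood apart from the rest by Dixon's criterion, which flags about 1 in 20 sets by chance. VV replicate 4 was the mouse concerned in 3 of them. There Tbc1d7 was 9.43 while the next VV mouse had 10.05, Lamtor1 was 8.81 while the next had 9.29, and Sesn3 was 10.26 while the next had 9.96. Wdr24 and Wdr59, both GATOR2 subunits, were highest in FF replicate 1, at 7.09 and 8.71, while the next FF mouse had 6.89 and 8.61. Slc38a9 was highest in FF replicate 3, at 9.62, while the next FF mouse had 9.37. None of these 6 genes passed the test between the groups.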

How the results depend on the processing

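Prkag2 was the only member past the threshold. The number of higher members past it became 0 with the replicate block (adjusted p of Prkag2 0.168), 0 without FF replicate 1 and VV replicate 1 together, and 0 to 3 with each mouse left out. It was 1 without VV replicate 3, 3 without FF replicate 3, and 0 in the other 8 such fits; the number lower was 0 to 1, with Sesn3 past the threshold without FF replicate 3. It became 3 with array weights, 2 without genes below the 25th percentile of intensity, 4 without those below the median, 4 after centring arrays on their median and 4 at an adjusted p under 0.10. It stayed 1 with quantile normalisation, with probe sets averaged per gene and with trend and robust settings. Over all genes 148 passed. This became 5 with the block, 7 to 379 with a mouse left out, 383 with array weights, 230 and 355 with the intensity filters, 99 with quantile normalisation and 601 after centring, where 92.2% of calls were higher in FF, beside 82.4%. At an unadjusted p under 0.05, the 11 higher members became 8 to 14 and the 1 lower became 1 to 2. The members' median stayed between 0.07 and 0.11, and was 0.114 after centring. The 12 members with an unadjusted p under 0.05 kept their sign in all 19 alternatives, and 9 of them kept such a p whichever mouse was left out. These 12 were picked by that p on the same arrays, so the kept signs are not an independent check.

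Signs turned for some of the genes far from the threshold. With a mouse left out, the difference ran from -0.109 to 0.0109 for Rragb, from -0.0208 to 0.176 for Lamtor4, from -0.0061 to 0.0842 for Fnip1, from -0.132 to 0.0355 for Fnip2, from -0.0350 to 0.0285 for Mios, from -0.191 to 0.0140 for Sesn1, from -0.0152 to 0.139 for Sesn2, from -0.0639 to 0.0124 for Slc38a9, from -0.155 to 0.287 for Ddit4, from -0.0201 to 0.164 for Ddit4l and from -0.0937 to 0.0091 for Prkab2. Slc38a9 was 0.0255 after centring, Ddit4 was -0.0878 with array weights, and without FF replicate 1 and VV replicate 1 Slc38a9 was 0.0244 and Ddit4l -0.0179. Of the paralogue comparisons, Sesn1 minus Sesn2 ran from -0.309 to 0.0292 with a mouse left out, and Ddit4l minus Ddit4 from -0.267 to 0.271, and was -0.0653 without both mice. The cause was not tested.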
